A study of Rattus norvegicus with 4 samples.

Results

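The difference between KHS101 at 5 uM and KHS101 at 1.7 uM was examined in cultured rat hippocampal neural progenitor cells. For each gene it is the log2 expression value on the array of the higher dose minus that on the array of the lower dose. All 14217 genes with a single symbol on the array were included, each through its probe set of highest average signal in the study. GCRMA values under log2 = 5 carry little specific signal and were raised to that floor. A gene counted as measured if it lay above the floor on at least 1 of the 2 arrays. This held for 8500 of the 14217 genes, of which 8369 were above the floor on both. A call, higher or lower at 5 uM, required a difference of at least 2-fold, which is 1 on the log2 scale. A difference that involves an array at the floor is a bound and is written with "at least".

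The cells came from Fisher 344 rats, and each of 4 groups was hybridised to 1 array: KHS101 at 5 uM, KHS101 at 1.7 uM, 1 uM retinoic acid with forskolin, and the solvent dimethyl sulfoxide (DMSO). The culture protocol, which covers several experiments, gives early-passage cells, N2 medium, 4 days of exposure and 0.1% DMSO; no concentration of forskolin is stated in the labels. The doses of KHS101 differ 2.94-fold. With 1 array a side there is no replicate, no p-value was computed, and the spread between cultures is unknown, and the small number of arrays limits how precise any value below can be.

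KHS101 is a synthetic compound that has been used to drive such progenitors towards neurons, and the centrosome and spindle protein TACC3 has been described as its binding partner. Before a cell copies its DNA, the MCM helicase is loaded on origins by licensing factors such as CDT1, and the E2F transcription factors, held back by the retinoblastoma proteins, switch on these genes at the passage from G1 to S phase. Stressed cells use other programmes: ATF4 and its partners in the integrated stress response, NRF2 for antioxidant and heme-degrading enzymes, and heat shock factor for chaperones.

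The marker genes of the labelled cell type were checked first. The progenitor markers Sox2, a transcription factor, with log2 values of 13.57 at 5 uM and 13.82 at 1.7 uM, and Nes (nestin), with 11.89 and 11.97, were well above the floor. Of 18 named progenitor markers, 5 were at the floor on both KHS101 arrays: Sox1, Pax6, Hes5, Prom1 and Emx2. Dcx and Neurod1, markers of young neurons, and Gfap, an astrocyte filament, were also at the floor on both. Many other markers of these cell types were above the floor on at least 1 KHS101 array. This held for 12 of 20 named markers of young neurons, 15 of 31 of mature neurons and 10 of 19 of astrocytes. Of 17 microglial markers 16 were at the floor on both arrays, and of 15 endothelial and pericyte markers 14. Oligodendrocyte lineage markers were present, with 13 of 20 above the floor. Between 8389 and 8471 genes lay above the floor on each of the 4 arrays. The 3' minus 5' log2 difference of the beta-actin control, which grows as RNA degrades, was 1.54 at 5 uM, 1.40 at 1.7 uM and 1.26 in DMSO. For hexokinase it was 0.96, 0.80 and 0.69, and for Gapdh, which hardly varied, -0.11, -0.14 and -0.16. With retinoic acid and forskolin the values were 1.37 for beta-actin, 0.66 for hexokinase and -0.12 for Gapdh. The part of these differences in the results was not tested.

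At 5 uM, 69 of 8500 measured genes (0.812%) were higher than at 1.7 uM and 147 (1.73%) were lower. Of these calls, 7 and 9 are bounds. With a threshold of 1.5-fold the counts were 308 higher (3.62%) and 533 lower (6.27%). The median log2 difference over all measured genes was -0.01 and its median size was 0.187, so a typical gene differed far less than the threshold. In the other pairs of arrays the median size ran from 0.267 to 0.433. Calls were more frequent among weakly expressed genes: 30 of the higher and 73 of the lower genes had a mean level between 6 and 8, where 1629 genes lay. Among the 984 genes with a mean level of 12 or more, 5 were higher and 0 lower. The threshold falls in a dense region, since 132 genes lay within 0.1 of it.

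**Figure D1:**
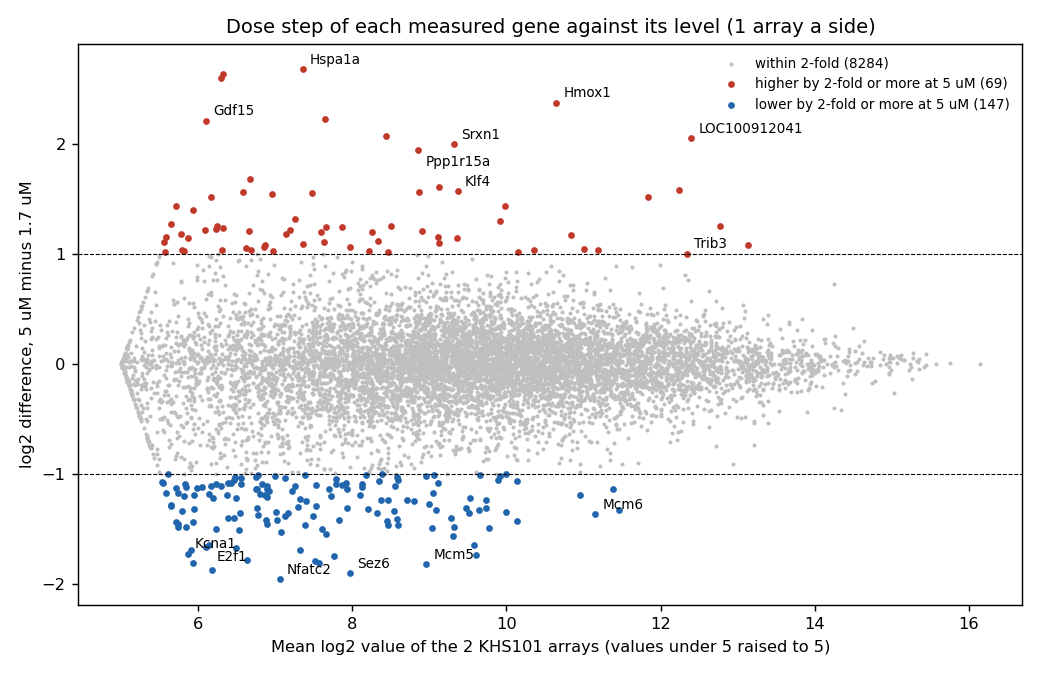
Each point is 1 of 8500 measured genes: the x axis gives the mean log2 value of the 2 KHS101 arrays and the y axis the log2 difference, 5 uM minus 1.7 uM. Dashed lines mark 2-fold; 69 genes lie at or above the upper line and 147 at or below the lower one, and the spread of the differences is wider at low levels.

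The genes most strongly lower at the higher dose included those that load and form the replicative helicase. Mcm5, a helicase subunit, was at 8.05 on the 5 uM array and 9.87 on the 1.7 uM array, with 11.32 in DMSO and 10.52 with retinoic acid and forskolin. The value at 5 uM was the lowest of the 4, and the dose step was 3.52-fold (log2 -1.82). Mcm3, another subunit, was at 6.67, 8.47, 10.38 and 9.22 in the same order, 3.50-fold lower at 5 uM than at 1.7 uM. Cdt1, the loading factor, was at 8.76, 10.40, 11.42 and 10.42, a step of 3.12-fold. Mcm6 was at 10.47, 11.83, 13.04 and 12.06, a step of 2.57-fold. For all 4 of these genes, the 5 uM array was the lowest and the DMSO array the highest.

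Of 21 measured genes of the MCM helicase and origin licensing, 7 were lower at 5 uM and 0 were higher. The median log2 difference was -0.81 against -0.01 over all measured genes. Over all measured genes 1.73% were lower and 0.812% higher, and these shares are the reference for the counts of each list below. The other called members were Mcm10, which recruits polymerase, at -1.16, the CDT1 inhibitor Gmnn at -1.06 and Mcm2, by 2.00-fold. The second probe set of Mcm10 gave -2.06. Not all subunits of the ring differed to the same extent, as Mcm4 and Mcm7 were both at -0.53. The subunits of the origin recognition complex had differences of both signs: Orc1 was at -0.86 and Orc6 at -0.54, whereas Orc3, Orc5, Orc2 and Orc4 were at 0.19, 0.31, 0.42 and 0.50, none past 2-fold.

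The promoters of these genes are shown because letters bound by E2F factors were common in them. RefSeq windows of the GRCr8 assembly, from 250 bases before to 50 after each gene's start, were searched for TTGGCGC and TTCGCGC on both strands (GCGCCAA and GCGCGAA on the other strand), and overlapping matches were counted separately. Capitals mark the matches. The windows are chr19:13488563-13488862 (plus strand) for Mcm5, chr9:30733697-30733996 (minus strand) for Mcm3, chr13:42404303-42404602 (minus strand) for Mcm6 and chr19:67528999-67529298 (plus strand) for Cdt1.
Mcm5: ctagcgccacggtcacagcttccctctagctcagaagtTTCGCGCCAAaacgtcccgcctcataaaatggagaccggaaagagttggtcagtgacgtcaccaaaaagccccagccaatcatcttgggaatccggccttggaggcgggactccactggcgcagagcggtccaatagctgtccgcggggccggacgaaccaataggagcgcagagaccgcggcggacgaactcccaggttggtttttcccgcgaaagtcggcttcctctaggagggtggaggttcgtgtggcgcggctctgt
Mcm3: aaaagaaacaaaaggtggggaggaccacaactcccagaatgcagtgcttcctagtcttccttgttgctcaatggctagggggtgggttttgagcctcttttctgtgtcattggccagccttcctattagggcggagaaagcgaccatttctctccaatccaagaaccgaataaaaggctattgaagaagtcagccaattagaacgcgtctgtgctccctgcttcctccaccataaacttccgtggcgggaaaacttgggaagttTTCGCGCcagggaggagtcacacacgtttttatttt
Mcm6: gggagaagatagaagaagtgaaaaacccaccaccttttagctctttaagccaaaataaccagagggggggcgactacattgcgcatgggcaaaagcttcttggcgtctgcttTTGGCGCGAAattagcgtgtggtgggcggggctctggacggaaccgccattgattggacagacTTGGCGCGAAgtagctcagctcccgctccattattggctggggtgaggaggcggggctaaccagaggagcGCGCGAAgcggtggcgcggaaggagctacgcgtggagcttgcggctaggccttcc
Cdt1: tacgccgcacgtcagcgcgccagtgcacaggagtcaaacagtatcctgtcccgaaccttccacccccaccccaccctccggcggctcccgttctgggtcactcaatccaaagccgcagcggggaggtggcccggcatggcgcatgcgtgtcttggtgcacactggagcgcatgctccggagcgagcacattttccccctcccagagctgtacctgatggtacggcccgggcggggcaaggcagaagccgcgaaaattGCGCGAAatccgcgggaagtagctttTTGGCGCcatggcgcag
Mcm6 held 5 matches, Mcm5 and Cdt1 2 each and Mcm3 1.

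A match was present in 11 of the 17 licensing genes with a promoter in the table (64.7%), against 8.19% of the 7213 measured genes with a promoter and 3.89% of all 27457 promoters. The 11 genes with a match had a median log2 difference of -1.06, from -1.82 to 0.03, and 7 of them were lower by 2-fold. The 6 without a match, among them Orc2, Orc3, Orc5 and Orc6, had a median of -0.18, from -0.89 to 0.42, and 0 were lower by 2-fold. Over all 591 measured genes with a match the median was -0.028, and 22 (3.72%) were lower. Over the 6622 without a match it was -0.004, and 101 (1.53%) were lower. The gap between the medians was thus far smaller over all genes than within the licensing list. Among all 123 lower genes with a promoter 22 held a match (17.9%), and among 56 higher genes 3 did (5.36%). E2F letters were not the only frequent ones: CCAAT, searched on both strands, was in 70.6% of the licensing promoters, against 38.9% of measured genes. The windows of the lower genes Ung, Tk1 and Ccne1 held 0 E2F matches, and that of E2f7 held 1. A match is a description of the letters and not proof of binding. Only the forms given above were searched for E2F, so a window without a match may still hold other E2F sites.

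Of the E2F genes themselves, 4 were lower at the higher dose. E2f7, a repressor of the family, was at 6.89 on the 5 uM array, 8.63 at 1.7 uM, 10.15 in DMSO and 9.33 with retinoic acid and forskolin, a dose step of 3.34-fold. E2f1, an activator, was at 5.32, 6.97, 8.56 and 7.67, a step of 3.13-fold that ended just above the floor. In both genes the 5 uM array was the lowest of the 4. Of 20 measured members of the E2F and retinoblastoma network, 8 were lower, 0 were higher and the median was -0.75. The activator E2f2 was 2.76-fold lower, and E2f8, a second repressor, at least 2.25-fold. Ccne2 and Ccne1, the E cyclins that drive entry to S phase, were 2.68-fold and 2.47-fold lower. Mybl2, a transcription factor of the late cell cycle, was 2.67-fold lower and Tfdp2, a partner of the E2F proteins, 2.52-fold. The pocket proteins Rb1 and Rbl2 were at -0.09 and -0.23, and E2f4, E2f5 and E2f6 at 0.08, 0.12 and -0.04.

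Enzymes of the fork and of repair were lower as well. Of 36 measured genes of the replication fork and chromatin assembly, 7 were lower by 2-fold and 19 by 1.5-fold, 0 were higher by either threshold, and 35 of 36 had a difference below 0 (median -0.59). Dscc1, part of an alternative clamp loader that aids sister chromatid cohesion, was 2.79-fold lower with values of 8.58 at 5 uM and 10.06 at 1.7 uM. The nuclease Exo1 was 2.50-fold lower and the histone chaperones Asf1b and Chaf1a 2.36-fold and 2.34-fold. Pcna, the sliding clamp, was at 12.85 and 13.33, and the primase Prim1 at 12.37 and 12.38, both within 2-fold.

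Of 19 measured genes of recombination and repair, 7 were lower, 0 higher and the median was -0.72. Ung, which removes uracil from DNA, was 2.96-fold lower (8.52 at 5 uM, 10.08 at 1.7 uM). The Fanconi anaemia protein Fancd2 was 2.68-fold lower, Bard1, the partner of BRCA1, 2.63-fold and Rad54l, a recombination helper, 2.56-fold. Among 17 measured deoxynucleotide and folate enzymes, 2 were lower: thymidine kinase Tk1 by 3.32-fold and thymidylate synthase Tyms by 2.18-fold. The other probe sets of Tk1 gave -1.41 and -0.30 against -1.73 for the one used. The median of that list was -0.05, and its purine synthesis enzymes Gart and Atic were at -0.02 and -0.01.

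Genes of mitosis differed less between the doses. Their median level at 1.7 uM was 10.24, against 7.56 for repair, 8.82 for the E2F list, 9.43 for licensing and 9.73 for the fork. Differences spread less at higher levels, and the part of level in this contrast was not tested. Of 64 measured mitotic genes 3 were lower by 2-fold and 0 higher, with a median of -0.31, and 57 lay below 0. The called members were the centromere protein Cenpu (2.74-fold), the kinase Melk (2.26-fold) and the transcription factor Foxm1 (2.13-fold). Mki67, the proliferation antigen, was at 10.46 on the 5 uM array, 10.49 at 1.7 uM, 11.72 in DMSO and 11.42 with retinoic acid and forskolin. The KHS101 arrays thus lay close together and below the other 2. Tacc3 was at 9.83, 10.03, 11.28 and 10.45 in the same order, with a dose step of -0.20.

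The promoters of mitotic genes often hold another element, the cell cycle homology region, searched here as TTTGAA on both strands (TTCAAA on the other). It was found in 38 of 56 mitotic promoters (67.9%), against 10.8% of measured genes and 18.1% of all promoters. The windows of Ccnb2, the mitotic cyclin B2, at chr8:79981609-79981908 (minus strand), and of Mki67, at chr1:199952544-199952843 (minus strand), are shown as examples, with the matches to this element in capitals.
Ccnb2: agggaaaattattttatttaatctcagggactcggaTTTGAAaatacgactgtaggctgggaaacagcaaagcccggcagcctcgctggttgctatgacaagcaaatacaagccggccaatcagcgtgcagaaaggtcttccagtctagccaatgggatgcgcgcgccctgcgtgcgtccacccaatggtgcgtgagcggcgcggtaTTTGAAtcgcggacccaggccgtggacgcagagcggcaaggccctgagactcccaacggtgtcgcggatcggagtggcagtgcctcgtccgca
Mki67: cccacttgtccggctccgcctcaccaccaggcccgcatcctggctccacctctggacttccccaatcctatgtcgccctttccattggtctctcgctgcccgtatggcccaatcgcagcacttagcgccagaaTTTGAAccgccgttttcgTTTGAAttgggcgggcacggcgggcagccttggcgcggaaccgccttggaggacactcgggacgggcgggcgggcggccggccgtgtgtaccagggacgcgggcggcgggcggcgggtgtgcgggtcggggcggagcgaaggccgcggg
Each window held 2 matches, and Ccnb2 had a dose step of -0.14. The window of Mki67 also held 1 E2F match, left in lower case, and that of Ccnb2 held 0.

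The 5 cell-cycle lists together held 136 measured genes with a promoter, which were sorted by these motifs. The 27 with an E2F match alone had a median dose step of -0.72, and 9 were lower by 2-fold. The 47 with the mitotic element alone had a median of -0.32, and 5 were lower by 2-fold. The 6 with both had a median of -0.51, and the 56 with neither, of which 10 were lower, a median of -0.48. The medians of the first step, between DMSO and 1.7 uM, lay closer together, at -1.16, -1.11, -1.23 and -0.97 in the same order. Both steps use the 1.7 uM array, so they are not independent, and the difference between them was not tested.

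**Figure D2:**
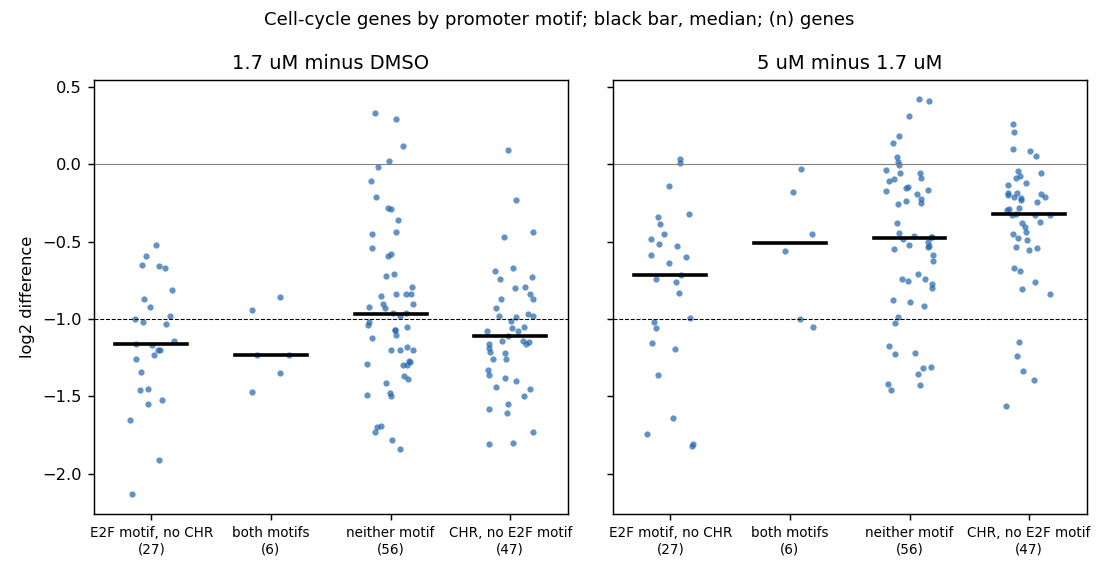
Each point is a cell-cycle gene, grouped by promoter motif along the x axis, with its log2 difference on the y axis; the left panel is 1.7 uM minus DMSO and the right panel 5 uM minus 1.7 uM, which share the 1.7 uM array. Black bars are medians: they lie between -0.97 and -1.23 on the left, and at -0.72 for the E2F group and -0.32 for the mitotic element on the right.

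Stress proteins were among the genes with the largest steps upward. Hspa1a, the inducible HSP70 chaperone, was at 8.69 on the 5 uM array, 6.02 at 1.7 uM, 5.67 in DMSO and 5.64 with retinoic acid and forskolin. Only the 5 uM array stood apart, by 6.39-fold from 1.7 uM. Hspa1b is a nearly identical copy, and its signal may not be separable from that of Hspa1a; a probe set assigned to both was not used. Of 25 measured heat shock factor targets, Hspa1a was the single one called, with 0 lower and a median of 0.17. The co-chaperone Bag3 was at 8.95 and 8.44, and the chaperones Hspa4 and Hsph1 at 0.54 and 0.18. Hspd1, the mitochondrial HSP60 chaperone, which has also been described as a target of KHS101, was at 13.45, 13.56, 13.38 and 12.85 in the order 5 uM, 1.7 uM, DMSO and retinoic acid with forskolin, and 0 of 20 mitochondrial chaperones and proteases were called.

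Hmox1, which degrades heme, was at 11.83 on the 5 uM array, 9.46 at 1.7 uM, 6.39 in DMSO and 5.16 with retinoic acid and forskolin, a dose step of 5.18-fold. Akr1b8, an aldo-keto reductase, was at 8.76 and 6.54 and at the floor on the other 2 arrays, a step of 4.68-fold. Srxn1, which repairs oxidised peroxiredoxins, was at 10.32 and 8.32, with 5.05 in DMSO and the floor with retinoic acid and forskolin; its step was 4.00-fold, and its second probe set gave 2.02. In all 3 genes each KHS101 array was above both others. Of 34 measured NRF2 antioxidant and heme enzymes, 5 were higher and 0 lower; the remaining called members were Nfe2l2, which encodes NRF2, by 2.26-fold and the quinone reductase Nqo1 by 2.14-fold. The list as a whole did not follow, with a median of 0.09: thioredoxin Txn1 was at 0.06, catalase at 0.00 and the glutathione synthesis subunit Gclm at -0.05.

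Of 32 measured genes of the integrated stress response, 7 were higher, 0 were lower and the median was 0.38. Ppp1r15a, the phosphatase subunit that reverses the translational arrest, was at 9.83 at 5 uM, 7.88 at 1.7 uM, 5.58 in DMSO and 5.90 with retinoic acid and forskolin, a step of 3.85-fold. Gdf15, a secreted stress hormone, was at 7.21 at 5 uM and at the floor on the other 3 arrays, a step of at least 4.62-fold. Gadd45b, a growth arrest gene, was 3.05-fold higher and the transcription factors Cebpb, Atf3 and Ddit3 2.96-fold, 2.32-fold and 2.12-fold. Trib3, a pseudokinase induced by ATF4, stood at the threshold: it was at 12.84, 11.84, 5.75 and 6.48, a step of 2.00-fold, while its other probe sets gave 1.74 and 1.09. Its first step, from DMSO to 1.7 uM, was thus several times larger than the second on the log2 scale.

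Several enzymes of amino acid and one-carbon synthesis in that list were above DMSO and differed little between the doses. Asns, asparagine synthetase, was at 13.92 at 5 uM, 13.83 at 1.7 uM and 11.79 in DMSO. Shmt2, a mitochondrial serine enzyme, was at 12.89, 12.76 and 11.47, and Mthfd2, its one-carbon partner, at 12.39, 12.42 and 11.02. Other enzymes of the list were not alike: Cth, of cysteine synthesis, was at 11.37 and 10.70 and at the floor in DMSO, a step of 0.68, and Gpt2, an alanine aminotransferase, was at 11.05, 11.25 and 11.41. Atf4 itself was at 13.99, 13.77 and 12.04. None of 19 cytosolic aminoacyl-tRNA synthetases was called, with a median of 0.21 and the largest step, 0.44, in Sars1. None of 17 amino acid transporters was called either (median 0.22), and none of 27 genes of endoplasmic reticulum folding (median 0.07).

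The window of Trib3, chr3:161275484-161275783 (minus strand), holds the composite element recognised by ATF4 with a C/EBP partner, searched as TTNCATCA on both strands (TGATGNAA on the other) and marked in capitals.
Trib3: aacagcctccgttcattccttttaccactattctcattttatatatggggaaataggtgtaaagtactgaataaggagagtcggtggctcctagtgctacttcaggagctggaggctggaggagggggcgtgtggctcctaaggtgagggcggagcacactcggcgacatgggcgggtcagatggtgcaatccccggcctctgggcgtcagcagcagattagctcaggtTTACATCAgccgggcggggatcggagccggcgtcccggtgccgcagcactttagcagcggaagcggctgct
The element was found in 6 of the 27 integrated stress genes with a promoter (22.2%), against 1.77% of measured genes and 3.82% of all promoters. Of the higher genes with a promoter, 2 of 56 held it (3.57%). The windows of Ppp1r15a, Ddit3 and Gadd45b, which had larger steps than Trib3, held 0 matches.

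**Figure D3:**
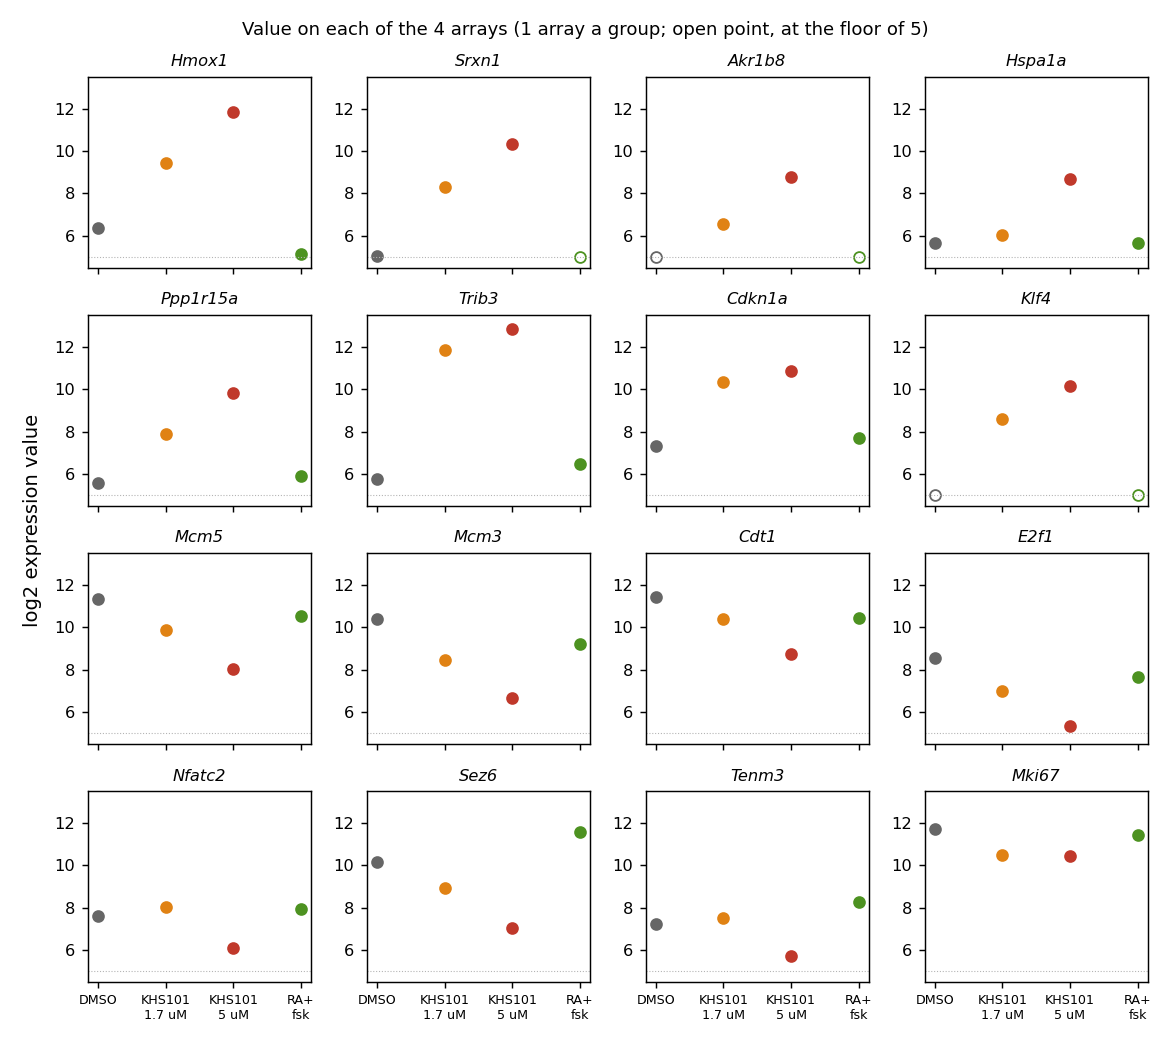
Log2 expression values of 16 genes on each of the 4 arrays, 1 array a group; open points lie at the floor of 5, and RA+fsk stands for retinoic acid with forskolin. Stress genes such as Hmox1 (11.83 at 5 uM, 9.46 at 1.7 uM) climb over both steps, Hspa1a stands apart at 5 uM alone, Mcm5 descends over both steps, and Mki67 lies at 10.46 and 10.49 at the 2 doses.

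The largest bounds upward were not in these lists. LOC100911253, a long noncoding RNA, was at 7.64 at 5 uM and at the floor on the other 3 arrays, at least 6.22-fold higher, and its other probe sets gave 1.03 and 1.10. Sema3c, a secreted guidance protein of the semaphorin family, was at 7.60 at 5 uM and at the floor on the other 3 arrays, at least 6.06-fold higher.

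Cdkn1a, the gene of the cell cycle brake p21, was at 10.87 at 5 uM, 10.33 at 1.7 uM and 7.33 in DMSO. The step of 0.54 was within 2-fold, but a second probe set of the gene gave 1.37. Of 14 measured p53 targets 0 were higher and 1, Sesn1, a stress sensor that acts on growth signalling, was lower by 2.61-fold. Cdkn1c, which encodes the inhibitor p57, was at 5.28, 6.37 and 7.82 and at 9.91 with retinoic acid and forskolin; it was 2.13-fold lower at 5 uM than at 1.7 uM. Klf4, a transcription factor of the stem cell network, was at 10.15 and 8.58 and at the floor on the other 2 arrays, a step of 2.97-fold. Adm, a hypoxia-induced peptide hormone, was at 6.43 at 5 uM and at the floor at 1.7 uM, a step of at least 2.70-fold. Of 35 measured genes of glycolysis and the hypoxia response 3 were higher and 2 were lower, with a median of 0.00 and 18 members above 0; over all measured genes 0.812% were higher and 1.73% lower. Pfkfb3, a regulator of glycolysis, was 2.05-fold higher, and Epas1, a hypoxia-inducible factor, 2.20-fold lower.

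Genes of ribosome biogenesis had small differences, most of them above 0. Of 34 measured members, 30 lay above 0, with a median of 0.33, and 0 were called at 2-fold. The largest step was 0.80, for the nucleolar protein Gnl3, which was at 12.72 at 5 uM, 11.91 at 1.7 uM, 11.84 in DMSO and 10.88 with retinoic acid and forskolin. The median of the list against DMSO was -0.86 with retinoic acid and forskolin, 0.04 at 1.7 uM and 0.38 at 5 uM. Over all measured genes 4150 of 8500 lay above 0. The 36 proteasome subunits had a median of 0.05, the 44 subunits of the respiratory chain -0.07 and the 12 reference genes 0.03, with 0 calls in each. Their median levels at 1.7 uM were 12.25, 12.66 and 12.86, a range in which few genes of any kind were called.

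Neuronal and glial genes gave a mixed picture. Elavl2, a neuronal RNA-binding protein, was at 6.63 at 5 uM, 5.24 at 1.7 uM and 5.39 in DMSO, 2.63-fold higher at the higher dose. Nefm, a neurofilament, was at 6.15 at 5 uM and at the floor on the other 3 arrays, at least 2.23-fold higher. Sez6, a dendritic membrane protein, was at 7.02, 8.92, 10.15 in DMSO and 11.56 with retinoic acid and forskolin, 3.74-fold lower at the higher dose. Of 12 measured markers of young neurons 1 was higher and 0 lower (median -0.19). Of 15 markers of mature neurons 1 was higher and 1 lower (median -0.03). Over all measured genes 0.812% were higher and 1.73% lower, and single calls in lists this short carry little weight. The neuronal tubulin Tubb3 was at 9.48 and 9.59. Of 10 astrocyte markers, Ndrg2 and the aldolase Aldoc were lower, by 2.42-fold and 2.20-fold, and 0 were higher. In that list 9 lay below 0 (median -0.19). Of 13 measured progenitor markers 12 lay below 0, with a median of -0.26, and 0 were called at 2-fold. Over all measured genes 4347 of 8500 lay below 0.

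All 13 measured oligodendrocyte lineage markers had a difference below 0, with a median of -0.60; 2 were lower by 2-fold and 8 by 1.5-fold. Apod, an apolipoprotein of glia, was at 9.32 at 5 uM, 10.66 at 1.7 uM, 12.52 in DMSO and 12.85 with retinoic acid and forskolin, a step of 2.53-fold. Gal3st1, which makes the myelin lipid sulfatide, was 2.52-fold lower. The lineage factors Olig2 and Olig1 were at -0.75 and -0.73, and Sox10 at -0.16. Over the 20 named markers the summed log2 level was 166.5 at 5 uM, 175.1 at 1.7 uM, 186.0 in DMSO and 195.3 with retinoic acid and forskolin. Mag, Mog and Mobp, genes of mature myelin, were at the floor on both KHS101 arrays. Mbp, another myelin gene, was well above it, at 9.96, 10.54, 12.07 and 13.36 in the same order of arrays. Fewer cells of a type and less RNA per cell cannot be told apart in such samples. Of 22 measured extracellular matrix genes, 3 were lower and 0 higher (median -0.53): the collagens Col9a1, by 3.51-fold, and Col5a1, by 2.76-fold, and the brain proteoglycan Ncan, by 2.17-fold.

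**Figure D4:**
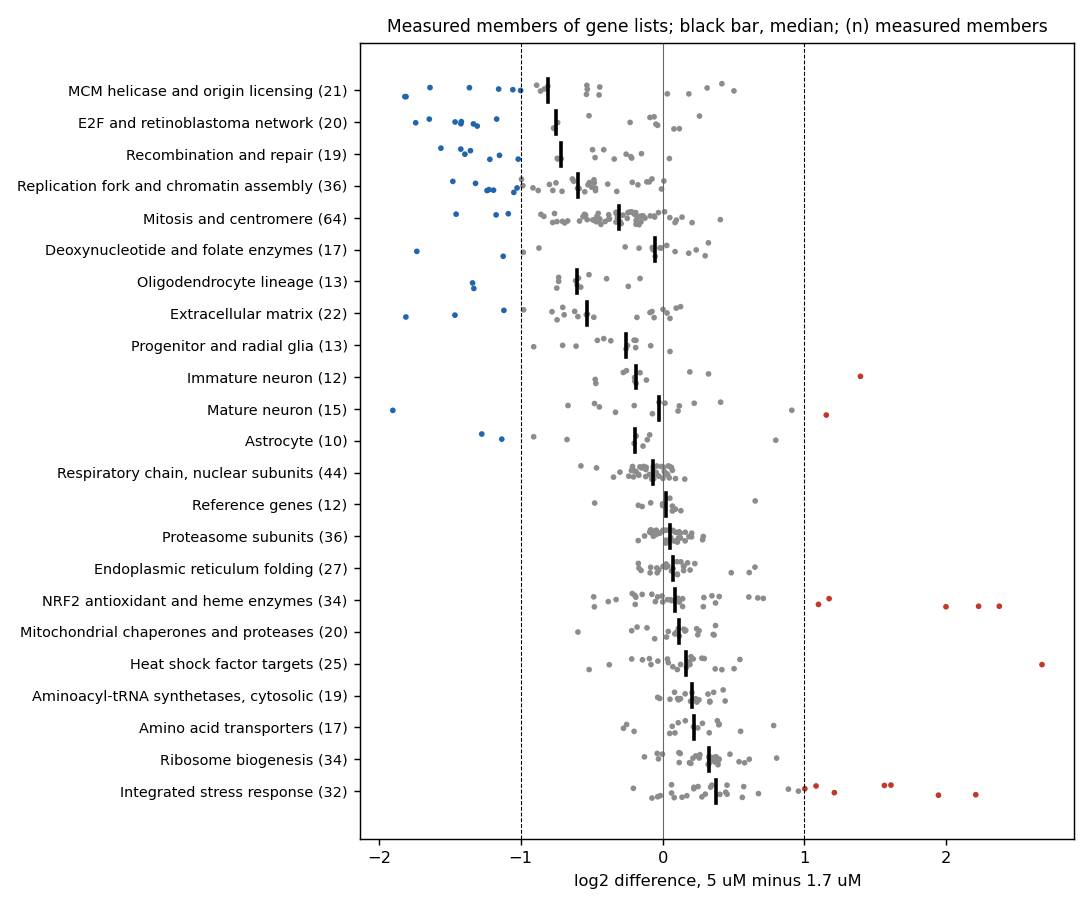
Log2 difference, 5 uM minus 1.7 uM, of the measured members of 23 gene lists, with the number of members in brackets. Black bars are medians and dashed lines mark 2-fold; blue and red points are lower and higher calls. The licensing, E2F, recombination and fork lists have medians from -0.81 to -0.59, and the integrated stress list has a median of 0.38.

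The gene with the largest drop of all 8500 was Nfatc2, a transcription factor activated by calcineurin, and the single call among 11 measured genes of calcineurin and NFAT (median -0.13). It was at 6.08 at 5 uM and at 8.03, 7.62 and 7.92 at 1.7 uM, in DMSO and with retinoic acid and forskolin. The 5 uM array alone was low, by 3.88-fold against 1.7 uM. Tenm3, an adhesion protein of the teneurin family, was likewise lowest at 5 uM, with 5.74 against 7.52, 7.22 and 8.28. Myl9, a myosin light chain, was at 5.24 at 5 uM and at 7.12, 6.77 and 8.96, a step of 3.66-fold. All 3 genes were within 2-fold of DMSO at 1.7 uM, unlike Mcm5. Over the 147 lower genes the median difference from DMSO was -0.89 at 1.7 uM and -2.14 at 5 uM. Over the 69 higher genes it was 0.45 and 2.21. These genes were chosen by the difference between the KHS101 arrays, so the gap between the medians follows from the choice.

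Retinoic acid with forskolin, set against DMSO, shares no array with the dose step. Of the 147 genes lower at 5 uM, 29 (19.7%) were higher with retinoic acid and forskolin than in DMSO and 19 (12.9%) were lower. Of all measured genes the shares were 4.02% and 3.14%. Of the 147 genes, 73 had a mean level between 6 and 8, where differences between arrays spread widely. The part of level in these shares was not tested. Of the 69 genes higher at 5 uM, 5 (7.25%) were higher with retinoic acid and forskolin and 4 (5.80%) were lower. Sez6, Myl9 and Sesn1 were lower at 5 uM than at 1.7 uM and higher with retinoic acid and forskolin than in DMSO. Over the 8500 genes, which are not independent replicates, Pearson's r between the differences was -0.13 and Spearman's rho -0.16.

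Other probe sets of the same gene were the sole repeat measurement, and they share the RNA and the array. For the higher genes 11 of 13 other probe sets above the floor had the same sign and 11 passed 2-fold; for the lower genes 22 of 23 had the same sign and 8 passed 2-fold. None passed 2-fold in the opposite direction. Over all measured genes 73.8% of 3054 other probe sets had the same sign. The exceptions among the higher genes were both of Xist, the X-inactivation RNA, whose probe set used gave 1.30. Its others gave -0.41 and, with the 5 uM array at the floor, a drop of at least 0.11. For Cdk5rap2, a centrosome protein called lower at -1.34, the others gave -0.45 and 0.00.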

How the data were processed

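Each of the 4 groups had 1 array. The deposited values are log2 expression values of 31099 probe sets; the submitters' processing notes list GCRMA and R 2.6.2, and no genome build is given in the sources used here. The log2 scale was read from the values. The arrays had nearly the same median (3.67 to 3.76), so a shift common to all genes would be hidden.

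Besides 57 control probe sets, which were left out, the platform annotation gave 1 symbol for 20826 probe sets, several for 436 and none for 9780, which stayed unnamed. Identifiers of 20758 named probe sets matched the RefSeq table (GRCr8). Promoter windows are from RefSeq.

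The members and gene lists were chosen with earlier results of these data known. The text names, by rule, the 15 genes of largest difference each way that passed the floor on both arrays, the 8 largest bounds each way, and from each list up to 4 called members on the side of its median and up to 2 on the other (the 2 largest where none was called) and genes always given, among them Tacc3, Hspd1 and Mki67. It leaves some out for length, and names further list members, and other genes, chosen after their values were seen.

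No statistical test between the arrays was run. The alternatives were floors of 4 and 6 or none, both arrays above the floor, the mean of probe sets, leaving out probe sets prone to cross-hybridisation, quantile normalization, centring along the level (windows of 501 genes) and thresholds of 1.5-fold and 3-fold. Calculations used Python 3.11.15, pandas 2.3.3, numpy 2.4.6 and matplotlib 3.10.9, and the calling step was checked on simulated arrays with known differences. Those differences were well past the threshold, with little noise and in well-expressed genes. The check thus covers the code and not how reliable the calls are.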

Additional observations from a re-analysis of the deposited data

Results flagged for a closer look

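Probe sets without a gene name entered no comparison above. Of 2457 such probe sets above the floor on at least 1 of the KHS101 arrays, 27 were higher by 2-fold at 5 uM than at 1.7 uM (1.10%) and 49 were lower (1.99%). The largest difference between arrays both above the floor was -2.34, in a probe set at 5.54 at 5 uM, 7.88 at 1.7 uM, 9.80 in DMSO and 8.81 with retinoic acid and forskolin. Their genes were not analysed here.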

How the results depend on the processing

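The counts of 69 higher and 147 lower genes stayed within 1.5 times under all alternatives of floor, probe set, normalization and centring, from 53 to 83 higher and from 110 to 168 lower; the ends were a floor of 6 for both lowest counts, quantile normalization for 83, and a floor of 4 or none for 168. Under quantile normalization 69 of the higher and 130 of the lower genes remained. The threshold moved the counts, to 308 higher and 533 lower at 1.5-fold and to 12 and 17 at 3-fold. Of the medians of 10 lists that lead the text, 1 moved by more than the median size of all differences (0.187): that of the E2F and retinoblastoma network, from -0.75 to -0.49 with a floor of 6, which raises the 5 uM values of E2f1, E2f8 and Tfdp2 to 6. Of 925 recomputed differences of named genes 61 moved by more than that, and 0 of the called ones changed sign. No paired analysis was possible because each group has 1 array. Without replicates, a difference between cultures or hybridisations and an effect of dose cannot be told apart, and weak signals have the widest spread.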

Other observations

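Long noncoding RNAs were frequent among the higher genes. They made up 7 of 69 higher genes (10.1%), 2 of 147 lower genes (1.36%) and 41 of 8500 measured genes (0.482%), by the RefSeq classes. Of the 41, 10 have a small nucleolar RNA gene inside their span in the RefSeq table; small nucleolar RNAs guide chemical modification of ribosomal RNA and are commonly cut from introns of host transcripts. Of these 10 hosts, 5 were higher at 5 uM, 0 were lower and 9 lay above 0, with a median of 0.96. The 31 other long noncoding RNAs had 2 higher and 2 lower and a median of 0.05, and 247 protein-coding genes with a small nucleolar RNA gene inside had 3 higher and 3 lower and a median of 0.03. The grouping was made after the values were seen.

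LOC100912041, which lies beside Slc3a2 and spans 7 small nucleolar RNA genes, was at 13.42 at 5 uM, 11.37 at 1.7 uM, 10.92 in DMSO and 10.23 with retinoic acid and forskolin, a step of 4.14-fold. LOC100911534 was at 9.47, 7.40, 7.08 and 5.65, a step of 4.20-fold. LOC102549726, the neighbour of Hspa1b in the table, was at 12.60, 11.08, 9.81 and 9.75, a step of 2.86-fold. LOC100911177, beside Znfx1, was 2.39-fold higher and LOC100909675 2.02-fold. Gas5, a host that spans 9 such genes, was at 14.61, 13.88, 12.56 and 12.37, within 2-fold for the step. Dancr was the host below 0, at -0.14. For LOC100912041 and LOC100911534, the step from 1.7 to 5 uM was larger than that from DMSO to 1.7 uM; both steps use the 1.7 uM array.

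Of 29 measured genes of the mitochondrial carrier family, a group chosen after the values were seen, 3 were higher, 0 were lower and 11 lay above 0, with a median of -0.035; over all measured genes 0.812% were higher. The called members were Slc25a37, the mitochondrial iron importer, by 2.34-fold, Slc25a38, a glycine carrier of heme synthesis, by 2.33-fold and Slc25a33, a pyrimidine nucleotide carrier, by 2.05-fold.

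In 10 of the 147 lower genes the 1.7 uM array was also at least 2-fold above DMSO. In 0 of the 69 higher genes it was at least 2-fold below DMSO. Of 8533 genes above the floor at 1.7 uM or in DMSO, 372 were higher at 1.7 uM by 2-fold and 364 lower. Counts as small as 10 and 0 carry little weight beside these shares. The 1.7 uM value enters both differences, so they are not independent. Kcna1, a potassium channel, was at 6.72 at 1.7 uM and at the floor on the other 3 arrays. Dpp6, a potassium channel partner, was at 8.17 at 1.7 uM, 6.88 at 5 uM and at the floor on the other arrays. Col5a1 was at 9.32 at 1.7 uM, 7.86 at 5 uM, 7.07 in DMSO and 9.48 with retinoic acid and forskolin.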
